A study of Drosophila melanogaster with 12 samples.

Results

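The wing imaginal disc of the Drosophila melanogaster larva is the epithelial sac that grows and is patterned into the adult wing and much of the thorax. The comparison here followed undamaged discs of larvae in the third instar between 15 h and 25 h, the later collection times of a time course on regeneration. Its members were the genes above 0 FPKM in both the control column at 25 h and the control column at 15 h. They numbered 7605 of the 17158 genes in the deposited table, and 7477 of them reached 1 FPKM in 1 or both columns and were compared.

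The groups used were undamaged discs at 25 h, undamaged discs at 15 h and, set beside them, undamaged discs at 0 h and regenerating discs at 25 h, 15 h and 0 h after apoptosis had been induced. Per the labels, control discs were kept under the conditions of the others with no cell death induced. By the labels, regeneration and control are different genotypes, neither of them described, so any transgene or temperature shift that both kinds share is not known from them. Each of the 6 groups held 2 poly(A) libraries made from 40 discs per the labels, and the table gives 1 merged value per group, so no difference below has a replicate check and no p-value is given.

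In the late larva the disc proliferates throughout its epithelium while the selector and signalling genes that divide it into pouch, hinge and notum remain active. The steroid hormone ecdysone times the end of this growth and acts through a cascade of nuclear receptors. Besides the epithelium a dissected disc carries adult muscle precursors, a piece of trachea and, on occasion, attached fat body or blood cells, which have transcripts of their own.

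FPKM, fragments scaled to transcript length and library size, summed to 1328872 at 25 h and 1372499 at 15 h, and read depth is unknown. Levels in the columns at 25 h and 15 h had a Spearman rho of 0.99 across genes, which are not independent replicates. Differences are given as log2 of (FPKM + 1) at 25 h over (FPKM + 1) at 15 h, a scale that understates the change of low genes. Over all 7477 genes the median log2 ratio was 0.16, with the 5th and 95th percentiles at -0.31 and 0.56, and 71.9% of genes lay above 0. The median gene thus sat above 0, and list medians below are also given minus 0.16. Whole numbers of at least 1000 ending in 5 were read as having lost a decimal point, which was restored by dividing by 1000 and concerned 5558 of the genes compared. A value of 0 was not read as absence: 9462 genes were listed at 0 at 25 h and 7808 at 15 h, and 212 genes had values between 0 and 1 FPKM at 25 h, against 1522 at 15 h. The control column at 0 h has fewer decimals than the others. Whether its libraries were merged in the same way is not known, which bears on each value quoted from it.

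Wing disc markers were present at both times. All 13 epithelial markers examined were above 0 in every column, and their FPKM summed to 301 at 25 h and 255 at 15 h. Among them vg, the selector of wing identity, stood at 26.2 FPKM at 25 h and 21.4 FPKM at 15 h, nub of the pouch at 40.1 FPKM at 25 h and 31.1 FPKM at 15 h, and tsh of the hinge and notum at 33.9 FPKM at 25 h and 32.3 FPKM at 15 h. None of these 3 passed the rule described next. The 6 muscle precursor markers summed to 33.5 FPKM at 25 h and 41.6 FPKM at 15 h, and the tracheal factor trh stood at 8.21 FPKM at 25 h and 9.35 FPKM at 15 h. The 6 blood cell markers, all low, summed to 4.21 FPKM at 25 h and 12.3 FPKM at 15 h. Of this, He gave 0 FPKM at 25 h and 3.89 FPKM at 15 h. Only PPO1 went the other way, at 0.765 FPKM at 25 h and 0.67 FPKM at 15 h. Of 5 markers of neurons and glia, 4 were at 0 at 25 h and 2 at 15 h, and all 3 salivary gland glue genes were at 0 at both times. The 8 fat body markers summed to 56.5 FPKM at 25 h and 7.66 FPKM at 15 h, with apolpp at 0 at both times. In bulk discs, fewer cells of a type and less RNA per cell cannot be told apart.

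A gene was counted as higher or lower where its log2 ratio was at least 1 in size. Few genes passed: 25 of 7477 were higher at 25 h (0.334%) and 9 were lower (0.12%). After median-of-ratios scaling, which shifts log2 ratios of well expressed genes by -0.18, the counts were 16 higher and 25 lower. When genes listed at 0 in 1 column were included, 80 were higher and 421 lower. The balance of higher and lower genes thus turned with the scale of the values and with the treatment of zeros. At a ratio of 1.5 times, 308 genes were higher and 80 lower. The higher genes were led by heat shock genes, fat body genes and cuticle genes. The lower genes included 2 of the mitochondrial genome, an elongation factor gene and a matrix gene. Of the 34 genes past the rule, 33 had an annotated position and 17 overlapped another annotated gene, so reads may have been shared between them. Overlap was not particular to these genes. Among all genes compared, 7324 had an annotated position and 3202 overlapped no other gene, as did 12 higher and 4 lower genes.

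**Figure D1:**
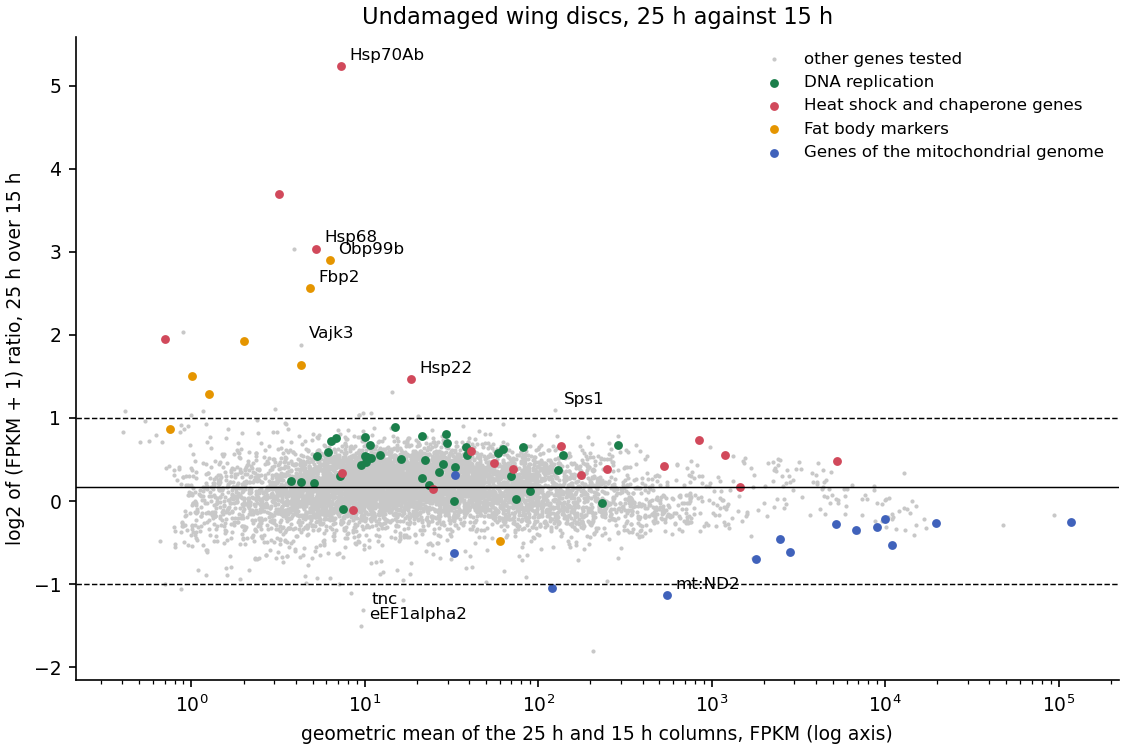
Log2 ratio of (FPKM + 1), 25 h over 15 h, of the 7477 genes compared in control discs, against the geometric mean of both columns in FPKM on a log axis. The solid line is the median of 0.16 and dashed lines mark the rule at 1 and -1. The heat shock and fat body genes above the upper line have mean levels under 20 FPKM, while DNA replication genes gather below that line and mostly above the median.

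Heat shock genes encode chaperones, many of them inducible. Of 19 members compared, 5 were higher at 25 h and 0 lower, and 18 had a log2 ratio above 0. Their median was 0.48, which is 0.31 above that of all genes. Hsp70Ab (FBgn0013276, chromosome 3R, 11958535 to 11960909), an inducible Hsp70 copy, had 66.6 FPKM at 25 h and 0.79 FPKM at 15 h, the highest log2 ratio of all genes compared (5.24). Hsp70Bb (FBgn0013278, chromosome 3R, 12505793 to 12508139) had 19.0 and 0.54 FPKM at 25 h and 15 h (log2 3.70), and Hsp70Bc had 3.43 FPKM at 25 h and 0.145 FPKM at 15 h (log2 1.95). Hsp70Ab, Hsp70Bb and Hsp70Bc were thus under 1 FPKM at 15 h and reached the filter through the 25 h column alone. Another 3 copies, Hsp70Aa, Hsp70Ba and Hsp70Bbb, were listed at 0 at 15 h and had 4.10, 4.43 and 13.5 FPKM at 25 h. At 0 h Hsp70Aa was also at 0, while Hsp70Ba had 6.97 FPKM and Hsp70Bbb 36.5 FPKM in control discs. These copies are nearly identical, so reads may be split among them and the value of each alone is uncertain.

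Hsp68 (FBgn0001230, chromosome 3R, 24055080 to 24057310), a relative of Hsp70, had 19.0 FPKM at 25 h and 1.44 FPKM at 15 h (log2 3.04). Hsp22, a small heat shock protein of mitochondria, had 31.6 FPKM at 25 h and 10.8 FPKM at 15 h (log2 1.47). The chaperones that are abundant without stress stayed within the rule. Hsp83, the fly Hsp90, stood at 1083 FPKM at 25 h and 653 FPKM at 15 h (log2 0.73), Hsc70-4 at 1440 FPKM at 25 h and 981 FPKM at 15 h (log2 0.55) and Hsp26 at 614 FPKM at 25 h and 459 FPKM at 15 h (log2 0.42). Hsp67Bc alone had a ratio below 0, at 8.20 FPKM at 25 h and 8.91 FPKM at 15 h. At 0 h both Hsp70Ab and Hsp68 stood above their later levels. In order of time, Hsp70Ab had 164, 0.79 and 66.6 FPKM and Hsp68 had 33.0, 1.44 and 19.0 FPKM in control discs. The column at 15 h was thus the lowest of the 3 for both.

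Fat body genes were the other leading group. Of 8 markers compared, 6 were higher and 0 lower at 25 h. The 8 had a median log2 ratio of 1.57, or 1.40 above that of all genes. That gap was 0.59 at a pseudocount of 5 FPKM and 2.23 at one of 0.1 FPKM. Lsp2, Lsp1gamma, Fbp1 and Lsp1alpha were under 1 FPKM at 15 h and reached the filter through the 25 h column alone. A further marker, listed at 0 at 25 h alone, had no ratio. Obp99b (FBgn0039685, chromosome 3R, 29716254 to 29716896), a member of the odorant-binding protein family, had 20.8 FPKM at 25 h and 1.92 FPKM at 15 h (log2 2.90). Fbp2, a fat body protein of the dehydrogenase family, had 14.4 and 1.61 FPKM at 25 h and 15 h (log2 2.56). The storage proteins that the fat body secretes into the hemolymph were also higher: Lsp2 had 5.58 FPKM at 25 h and 0.725 FPKM at 15 h, Lsp1beta 8.63 FPKM at 25 h and 2.11 FPKM at 15 h, and Lsp1gamma 2.81 FPKM at 25 h and 0.565 FPKM at 15 h. Fbp1, the receptor through which the fat body takes storage proteins back up, had 2.85 FPKM at 25 h and 0.36 FPKM at 15 h (log2 1.5).

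Lsp1alpha stood at 1.5 FPKM at 25 h and 0.375 FPKM at 15 h, just inside the rule, and Obp99a at 51.2 FPKM at 25 h and 71.7 FPKM at 15 h (log2 -0.48). The lipid carrier gene apolpp, abundant in fat body, was listed at 0 in both columns, and the yolk protein genes Yp1, Yp2 and Yp3 were also at 0 at both times. The summed level of the 8 markers named for the check of cell types moved through 260, 7.66 and 56.5 FPKM at 0 h, 15 h and 25 h in control discs, and through 407, 149 and 720 FPKM in regenerating discs. Both kinds of disc had their lowest fat body level at 15 h. CG34166 (chromosome 2L, 14743193 to 14743879), a gene of no known role here, moved alike, with 15.3 FPKM at 25 h and 0.985 FPKM at 15 h in control discs. Whether the amount of attached fat body set these values was not tested.

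Cuticle genes encode the chitin-binding and structural proteins of the apical matrix. Among 131 such genes in the table, 79 were at 0 in both control columns and 33 were at 0 at 25 h alone. Over all 17158 genes these counts were 7717 and 1745. The other 19 cuticle genes could be compared. Of these 3 were higher and 0 lower, and the median log2 ratio exceeded the all-gene median by 0.07. It lay 0.30 below it over the 12 genes that overlap no other annotated gene and 0.35 below it when 7 genes listed at 0 in 1 column were included. Vajk3 (FBgn0028544, chromosome 2L, 13944756 to 13947476) had 9.68 FPKM at 25 h and 1.90 FPKM at 15 h (log2 1.88), and its neighbour Vajk2 had 14.7 FPKM at 25 h and 6.53 FPKM at 15 h (log2 1.06). Cpr49Ah, a protein of the chitin-binding CPR family, had 23.4 FPKM at 25 h and 8.80 FPKM at 15 h (log2 1.32). The list did not move together, since Cpr49Ag of the same gene cluster stood at 61.4 FPKM at 25 h and 116 FPKM at 15 h (log2 -0.91).

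Among 26 genes of chitin and the apical matrix, 1 was higher and 0 lower, with a median 0.05 below that of all genes. The gene was Osi14, of the Osiris family of transmembrane proteins, with 5.09 FPKM at 25 h and 1.83 FPKM at 15 h (log2 1.11). The giant apical matrix protein dpy stood at 1.66 FPKM at 25 h and 3.29 FPKM at 15 h (log2 -0.69), within the rule.

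Higher genes outside these groups were few. Sps1 (FBgn0261270, chromosome 2R, 14268772 to 14270658), of the selenophosphate synthetase family, was the most abundant of all 25, with 183 FPKM at 25 h and 85.5 FPKM at 15 h (log2 1.09). Pepck1, an enzyme of gluconeogenesis, had 13.8 FPKM at 25 h and 6.19 FPKM at 15 h (log2 1.04). CG45087 has the same coordinates and the same value in every column as Pepck1, so the pair counts as 1 locus. The remaining higher genes were the unnamed CG31955, CG17261, CG3982 and CG18542, a precursor transcript of mod(mdg4) and dj, a gene of sperm development at 1.39 FPKM at 25 h and 0.125 FPKM at 15 h. CG31955 stood at 16.2 and 7.24 FPKM at 25 h and 15 h, and CG18542 at 29.3 FPKM at 25 h and 13.9 FPKM at 15 h.

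**Figure D2:**
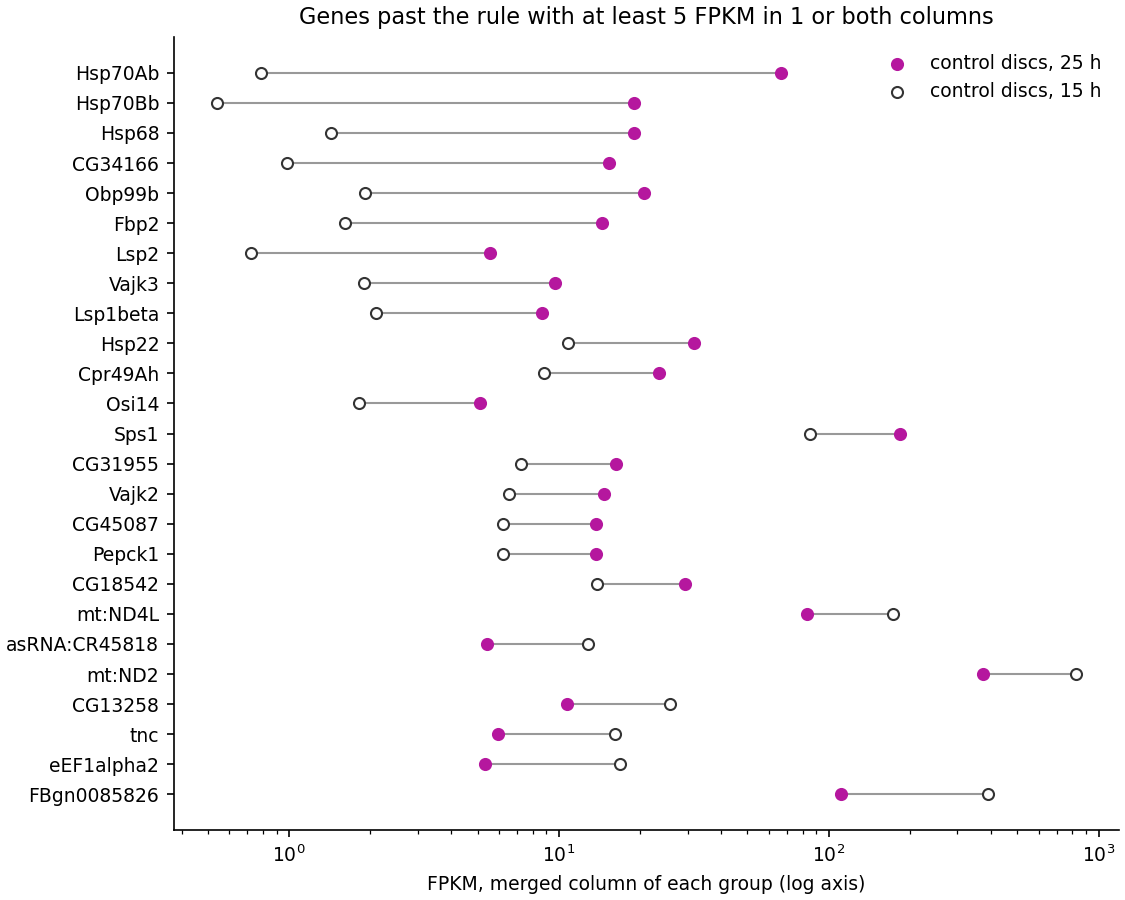
Merged FPKM on a log axis of the genes past the rule that reach 5 FPKM at 25 h or 15 h, in control discs at 25 h (filled) and 15 h (open), ordered by log2 ratio. The widest gap is that of Hsp70Ab, 66.6 FPKM at 25 h against 0.79 FPKM at 15 h, and the lower genes at the bottom differ by 2 to 4 times.

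Lower at 25 h was FBgn0085826, an identifier paired with no symbol, at 111 FPKM against 390 FPKM at 15 h (log2 -1.81). Next came eEF1alpha2 (FBgn0000557, chromosome 3R, 31738468 to 31743306), which encodes a form of translation elongation factor 1 alpha, at 5.31 FPKM against 16.8 FPKM at 15 h (log2 -1.5). The extracellular matrix gene tnc (FBgn0039257, chromosome 3R, 24984384 to 25022867), tenectin, an integrin ligand, had 5.94 FPKM at 25 h and 16.2 FPKM at 15 h (log2 -1.31). In order of time, 0 h, 15 h and 25 h, eEF1alpha2 had 6.49, 16.8 and 5.31 FPKM and tnc had 5.59, 16.2 and 5.94 FPKM in control discs. The 15 h column was the high one for both, and their levels at 0 h and 25 h lay close together. The unnamed CG13258 had 10.7 FPKM at 25 h and 25.7 FPKM at 15 h (log2 -1.19). The other lower genes were asRNA:CR45818 at 5.41 FPKM at 25 h and 12.8 FPKM at 15 h, 2 precursor transcripts of mod(mdg4) under 2 FPKM that share an annotated position, and 2 mitochondrial genes.

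The mitochondrial genome encodes subunits of the respiratory chain and the organelle's ribosomal RNAs. Of its 14 genes compared, 2 were lower, 0 higher and 1 had a ratio above 0. Their median log2 ratio was -0.40, which is 0.57 below that of all genes. The lower genes were mt:ND2 (mitochondrial genome, 240 to 1263), at 374 FPKM at 25 h and 824 FPKM at 15 h (log2 -1.14), and mt:ND4L, at 83.3 FPKM at 25 h and 173 FPKM at 15 h (log2 -1.05), both subunits of complex I. Other subunits of complex I stood within the rule, such as mt:ND5 at 1420 FPKM at 25 h and 2311 FPKM at 15 h (log2 -0.70) and mt:ND1 at 2291 FPKM at 25 h and 3517 FPKM at 15 h (log2 -0.62). The cytochrome oxidase gene mt:CoI stood at 9152 FPKM at 25 h and 13180 FPKM at 15 h (log2 -0.53), and the exception, mt:ND6, at 37.1 FPKM at 25 h and 29.7 FPKM at 15 h. A further gene, mt:ATPase8, was listed at 0 at 25 h, against 204 FPKM at 15 h, and had no ratio. Mitochondrial genes lie end to end, so single values are uncertain.

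Nuclear genes for the same machinery lay near the median gene. The 70 nuclear genes of the respiratory chain and ATP synthase had a median log2 ratio of 0.19, 0.03 above that of all genes, with 0 past the rule and 49 above 0. ND-18, a complex I subunit, stood at 60.2 FPKM at 25 h and 36.9 FPKM at 15 h (log2 0.69). The 71 mitochondrial ribosomal protein genes had a median of 0.13, with 0 past the rule.

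Cell cycle genes lay above the median gene without any one passing the rule. Of 41 DNA replication genes 39 had a ratio above 0, with 0 higher or lower, and their median of 0.52 was 0.35 above that of all genes, which 36 of the 41 exceeded. Prim2 (FBgn0259676, chromosome 3L, 20359833 to 20361585), a subunit of the primase that starts DNA strands, had the largest ratio at 20.7 FPKM at 25 h and 10.7 FPKM at 15 h (log2 0.89), and its partner Prim1 stood at 13.5 FPKM at 25 h and 7.505 FPKM at 15 h (log2 0.77). The helicase subunits Mcm6 and Mcm2 stood at 39.3 and 28.5 FPKM at 25 h, against 22.0 and 16.2 FPKM at 15 h. PCNA, the sliding clamp of the polymerases, stood at 365 FPKM at 25 h and 229 FPKM at 15 h (log2 0.67). At the low end, asf1 had 231 FPKM at 25 h and 235 FPKM at 15 h and chif 7.22 FPKM at 25 h and 7.77 FPKM at 15 h. Over the 9 DNA replication genes with no restored decimal point, the gap to the median of all such genes was 0.22.

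Genes of mitosis and the cell cycle behaved alike: 55 of 56 had a ratio above 0, none passed the rule, and the median of 0.38 was 0.22 above that of all genes, which 50 of the 56 exceeded. The mitotic phosphatase stg, a driver of entry into mitosis, stood at 43.3 FPKM at 25 h and 26.1 FPKM at 15 h (log2 0.71), the kinesin ncd at 50.7 FPKM at 25 h and 30.5 FPKM at 15 h (log2 0.72) and tum, needed for cytokinesis, at 46.7 FPKM at 25 h and 28.2 FPKM at 15 h (log2 0.71). E2f1, the transcription factor of S phase genes, was the exception at 28.4 FPKM at 25 h and 28.7 FPKM at 15 h, and CycE stood at 11.9 FPKM at 25 h and 10.5 FPKM at 15 h. The 19 genes of DNA damage and checkpoints had a median 0.11 above that of all genes, with lok at 33.1 FPKM at 25 h and 21.5 FPKM at 15 h.

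Several lists of growth genes, put together after values had been seen, lay likewise above the median gene with 0 past the rule. All 38 ribosome biogenesis genes had a ratio above 0, with a median 0.34 above that of all genes (0.26 above genes of like length). RIOK1 led at 23.6 FPKM at 25 h and 13.6 FPKM at 15 h. All 19 aminoacyl-tRNA synthetase genes and all 7 subunits of the CCT chaperonin lay above 0 too. Their medians were 0.26 and 0.30 above that of all genes, and 0.21 and 0.20 above genes of like length. Another added list, 30 RNA polymerase subunit genes, had a median 0.04 below that of all genes (0.04 above genes of like length). Of 13 histone chaperone and chromatin assembly genes, 12 lay above 0, led by Ssrp at 65.2 FPKM at 25 h and 36.9 FPKM at 15 h. Of cytosolic ribosomal protein genes, 51 of 81 lay above 0. Their median log2 ratio was 0.07, which is 0.09 below that of all genes but 0.01 above genes of like length. Among growth regulators, Myc stood at 7.79 FPKM at 25 h and 9.87 FPKM at 15 h (log2 -0.31) and its antagonist Mnt at 3.42 FPKM at 25 h and 6.535 FPKM at 15 h (log2 -0.77).

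**Figure D3:**
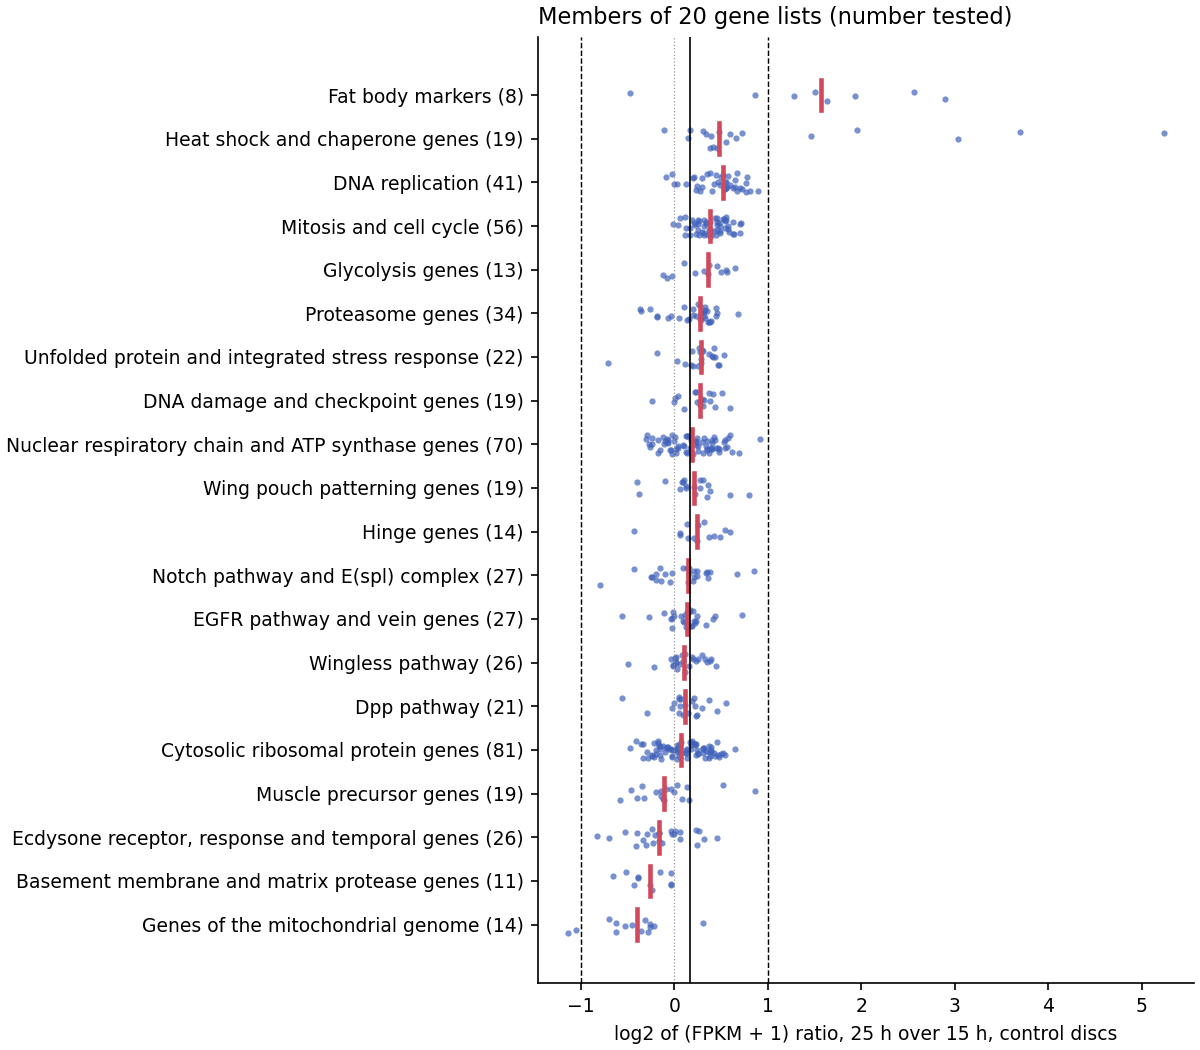
Log2 ratio, 25 h over 15 h, of the members of 20 gene lists in control discs, with 1 point per gene, the list median as a red bar and the number compared in brackets. The solid line is the median of all genes at 0.16, dashed lines the rule at 1 and -1. The medians of DNA replication and mitosis lie to the right of the solid line, with every member within the rule, and those of basement membrane and mitochondrial genes to its left.

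Genes of the ecdysone hierarchy leaned the other way. Of 26 receptor, response and temporal genes compared, 0 were higher or lower and 8 had a ratio above 0, with a median of -0.16, or 0.32 below that of all genes, which 5 of the 26 exceeded. Centred on genes of like exonic length the gap was 0.18, and over the 8 genes with no restored decimal point it was 0.10. Hr3, Hr4 and Eip75B are nuclear receptors of the early and delayed early response. Hr3 stood at 1.40 FPKM at 25 h and 3.27 FPKM at 15 h (log2 -0.83), Hr4 at 1.69 FPKM at 25 h and 3.37 FPKM at 15 h (log2 -0.70) and Eip75B at 8.05 FPKM at 25 h and 12.1 FPKM at 15 h (log2 -0.53). The receptor subunit EcR stood at 13.3 FPKM at 25 h and 12.7 FPKM at 15 h, and the ETS factor Eip74EF stood at 8.07 FPKM at 25 h and 9.44 FPKM at 15 h. ImpE1, an ecdysone-inducible gene of the disc, stood at 18.5 FPKM at 25 h and 24.7 FPKM at 15 h (log2 -0.40). ImpL2, an insulin-binding protein, had the highest ratio of the list at 19.0 FPKM at 25 h and 13.6 FPKM at 15 h (log2 0.46). The competence factor ftz-f1 remained low, at 2.41 FPKM at 25 h and 1.73 FPKM at 15 h, and chinmo, an early temporal factor, stayed under 1 FPKM at both times.

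Basement membrane genes also lay below the median gene. All 11 compared had a ratio below 0, none passed the rule, and the median of -0.26 was 0.43 below that of all genes (0.35 below genes of like length). The collagen IV chains Col4a1 and vkg stood at 4.21 and 2.57 FPKM at 25 h, against 7.18 and 4.11 FPKM at 15 h. The matrix protease Mmp1 stood at 15.0 FPKM at 25 h and 20.6 FPKM at 15 h (log2 -0.43), while the laminin chain LanB1 stood at 27.2 FPKM at 25 h and 27.8 FPKM at 15 h. Blood cells and fat body are known sources of collagen IV. The 8 blood cell genes compared had a median 0.24 below that of all genes (0.15 below genes of like length). They did not move together, since 4 of the 8 ratios lay above 0. The gap was 0.07 over the 4 genes of at least 5 FPKM and 0.57 over 10 genes with zeros included. Among those with a ratio below 0, Pxn stood at 1.64 FPKM at 25 h and 3.27 FPKM at 15 h. Likewise, eater stood at 0.63 FPKM at 25 h and 1.90 FPKM at 15 h. The part of blood cells and fat body in the collagen values was not tested.

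Muscle precursor genes had 6 of 19 ratios above 0 and a median 0.27 below that of all genes, with 0 past the rule. Over the 7 with no restored decimal point the median was 0.03 below. Him, which holds precursors undifferentiated, stood at 8.92 FPKM at 25 h and 12.7 FPKM at 15 h (log2 -0.46), and the FGF adaptor stumps at 6.59 FPKM at 25 h and 8.67 FPKM at 15 h (log2 -0.35). The muscle structural genes of the list differed among themselves. The gene sls, which encodes titin-like proteins, had the lowest ratio of the list at 0.84 FPKM at 25 h and 1.76 FPKM at 15 h (log2 -0.58). The highest belonged to up (troponin T), at 5.29 FPKM at 25 h and 2.45 FPKM at 15 h (log2 0.87), and Tm2 stood at 3.36 FPKM at 25 h and 2.03 FPKM at 15 h (log2 0.53).

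Lists for the patterning of the disc stayed near the median gene. Pouch genes (19 compared), hinge genes (14) and notum genes (11) had medians 0.05, 0.08 and 0.07 above that of all genes, with 0 past the rule in each. Dr, a homeobox gene, stood out among pouch genes at 29.4 FPKM at 25 h and 16.5 FPKM at 15 h (log2 0.80). In the hinge, the T-box gene Doc1 stood at 17.7 FPKM at 25 h and 11.4 FPKM at 15 h (log2 0.59) and zfh2 at 15.4 FPKM at 25 h and 21.1 FPKM at 15 h (log2 -0.43). The notum gene toe stood at 5.99 FPKM at 25 h and 3.51 FPKM at 15 h (log2 0.63). The selectors ap of the dorsal and en of the posterior compartment stood at 47.2 and 23.8 FPKM at 25 h, against 43.3 and 20.3 FPKM at 15 h.

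The Notch, EGFR, Dpp, Wingless, Hedgehog and Hippo lists had 0 genes past the rule. With 0.334% of all genes higher and 0.12% lower, a count of 0 in a list of this size is close to that of all genes, here and in the other lists with 0. Their medians lay between 0.06 below and 0.06 above that of all genes. In the Notch list the target genes diverged. E(spl)m6-BFM stood at 31.1 FPKM at 25 h and 54.8 FPKM at 15 h (log2 -0.80), E(spl)mgamma-HLH at 13.1 FPKM at 25 h and 7.86 FPKM at 15 h (log2 0.67) and dpn, a related bHLH repressor, at 9.79 FPKM at 25 h and 4.96 FPKM at 15 h (log2 0.86). The ligand Ser stood at 20.2 FPKM at 25 h and 18.1 FPKM at 15 h.

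Among ligands of other pathways, Krn, an EGF receptor ligand, stood at 13.0 FPKM at 25 h and 7.49 FPKM at 15 h (log2 0.72), hh at 31.5 FPKM at 25 h and 21.8 FPKM at 15 h (log2 0.51) and dpp at 8.89 FPKM at 25 h and 7.05 FPKM at 15 h (log2 0.30). Downstream, yki, the transcriptional coactivator of the Hippo pathway, stood at 33.1 FPKM at 25 h and 21.6 FPKM at 15 h (log2 0.59), brk, the repressor of Dpp targets, at 14.5 FPKM at 25 h and 9.57 FPKM at 15 h (log2 0.55) and rl, the fly ERK, at 125 FPKM at 25 h and 185 FPKM at 15 h (log2 -0.56). The proneural genes sc and ac stood at 20.8 and 71.2 FPKM at 25 h, against 15.0 and 66.4 FPKM at 15 h. Of 31 genes of sensory organs 17 could be compared and 11 were listed at 0 at 25 h alone, among them cato at 2.96 FPKM at 15 h. Over all 17158 genes, 1745 were listed at 0 at 25 h alone.

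The 24 genes of the JNK and p38 pathways and the 12 apoptosis genes compared had 0 past the rule, with medians 0.01 and 0.08 below that of all genes. The proapoptotic genes rpr and hid stood at 29.5 and 15.5 FPKM at 25 h, against 24.6 and 14.0 FPKM at 15 h. Glycolysis genes had a median 0.20 above that of all genes (0.13 above genes of like length and 0.09 over the 8 that overlap no other gene), with 10 of 13 ratios above 0, and Pfk, which commits sugar to glycolysis, stood at 19.5 FPKM at 25 h and 12.1 FPKM at 15 h (log2 0.65). Apical-basal polarity and adherens junction genes had a median 0.17 below that of all genes, but 0.01 above genes of like length.

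Log2 ratios varied with exonic length, and were highest in the middle classes. Across genes the Spearman rho of ratio and length was -0.08 in control discs and -0.33 in regenerating discs, as a description. Median log2 ratios of 10 length classes of like size, shortest first, were 0.01, 0.12, 0.20, 0.25, 0.26, 0.27, 0.25, 0.20, 0.09 and -0.04, highest for genes of 2142 to 2559 bases. The longest class began at 5800 bases. List medians centred on the length class were 0.29 for DNA replication, 0.23 for mitosis, 0.30 for heat shock and -0.56 for the mitochondrial genome. Among chromosomes, the 63 genes compared on chromosome 4 had a median of -0.12, with 23 above 0, against 0.15 for the 1234 genes of the X. The medians by chromosome were not centred on exonic length, so the part of length in them is not known. The 161 non-coding RNA genes had a median of -0.05 and the 7129 protein-coding genes 0.17.

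**Figure D4:**
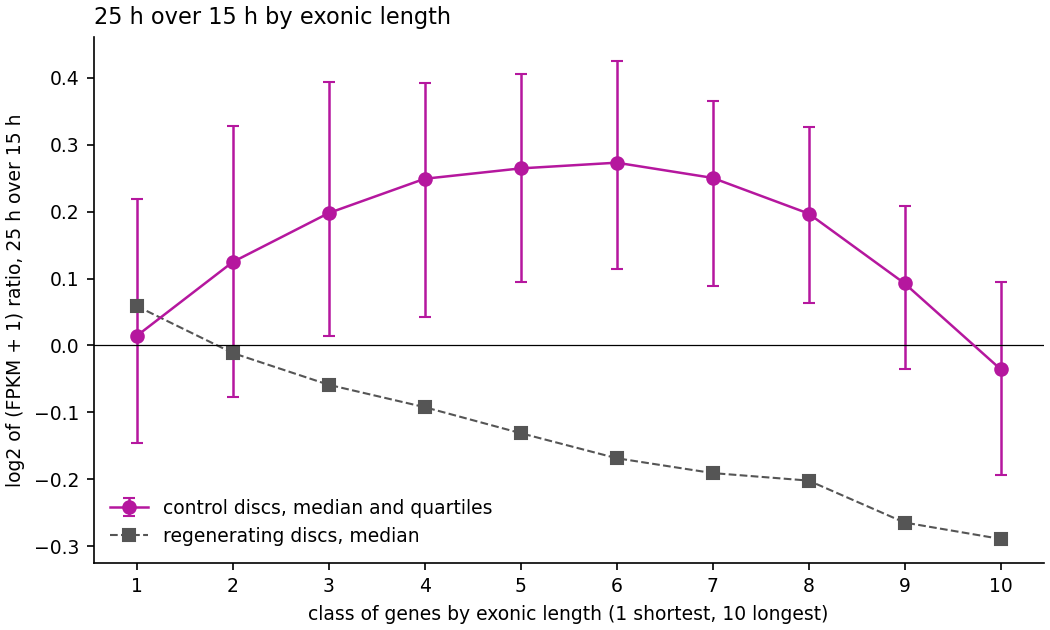
Median log2 ratio, 25 h over 15 h, by class of exonic length (10 classes, shortest to longest), with quartiles as bars for control discs and the medians alone for regenerating discs. Control medians peak in the sixth class at 0.27 and reach -0.04 in the longest, while those of regenerating discs go down with length, to -0.29.

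The same interval in regenerating discs shares no column with the control interval. There 93 of 7983 genes were higher at 25 h (1.16%) and 166 were lower (2.08%), and the SD of log2 ratios across genes was 0.30 in control discs and 0.44 in regenerating discs. The median gene had a log2 ratio of 0.16 in control discs and -0.11 in regenerating discs. Across 7408 genes compared in both, the ratios had a Spearman rho of 0.03 and a Pearson r of 0.12, given as a description.

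Of the 22 higher control genes that could be compared in regenerating discs, 13 were higher there too, which is 59.1% of the control list and 32.5% of the 40 regenerating genes that could be compared in control discs. Of 8 lower control genes, 1 was also lower in regenerating discs (12.5%, against 0.63% of the 159 lower in regenerating discs), and it was eEF1alpha2, at 8.88 FPKM at 25 h and 19.5 FPKM at 15 h. The shared higher genes were those of heat shock and fat body, with CG34166 and a mod(mdg4) precursor. Hsp70Ab had 231 FPKM at 25 h and 34.8 FPKM at 15 h in regenerating discs (log2 5.24 in control discs and 2.70 in regenerating discs), and Obp99b had 267 FPKM at 25 h and 47.5 FPKM at 15 h there (log2 2.90 and 2.47). Both genes were thus more abundant in regenerating than in control discs at each of these times.

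Of the other 9 higher control genes, CG18542 was lower in regenerating discs and 8 were within the rule there. Sps1 had a log2 ratio of 1.09 in control discs and -0.22 in regenerating discs, Cpr49Ah 1.32 and -0.28, and Vajk3 1.88 and 0.99. The differences themselves could not be tested. Relative to each kind of disc's own median gene, DNA replication genes lay at 0.35 in control discs and 0.01 in regenerating discs, and mitosis genes at 0.22 and -0.04. Mitochondrial genes lay at -0.57 and 0.40, basement membrane genes at -0.43 and 0.05 and cytosolic ribosomal protein genes at -0.09 and 0.42. Centred on genes of like length, over genes compared in both kinds of disc for the second value, basement membrane genes lay at -0.35 in control discs and 0.18 in regenerating discs. Cytosolic ribosomal protein genes then lay at 0.01 in control discs and 0.28 in regenerating discs. The mitochondrial gene mt:CoI stood at 2439 FPKM at 25 h and 2520 FPKM at 15 h in regenerating discs, under its levels in control discs at both times.

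**Figure D5:**
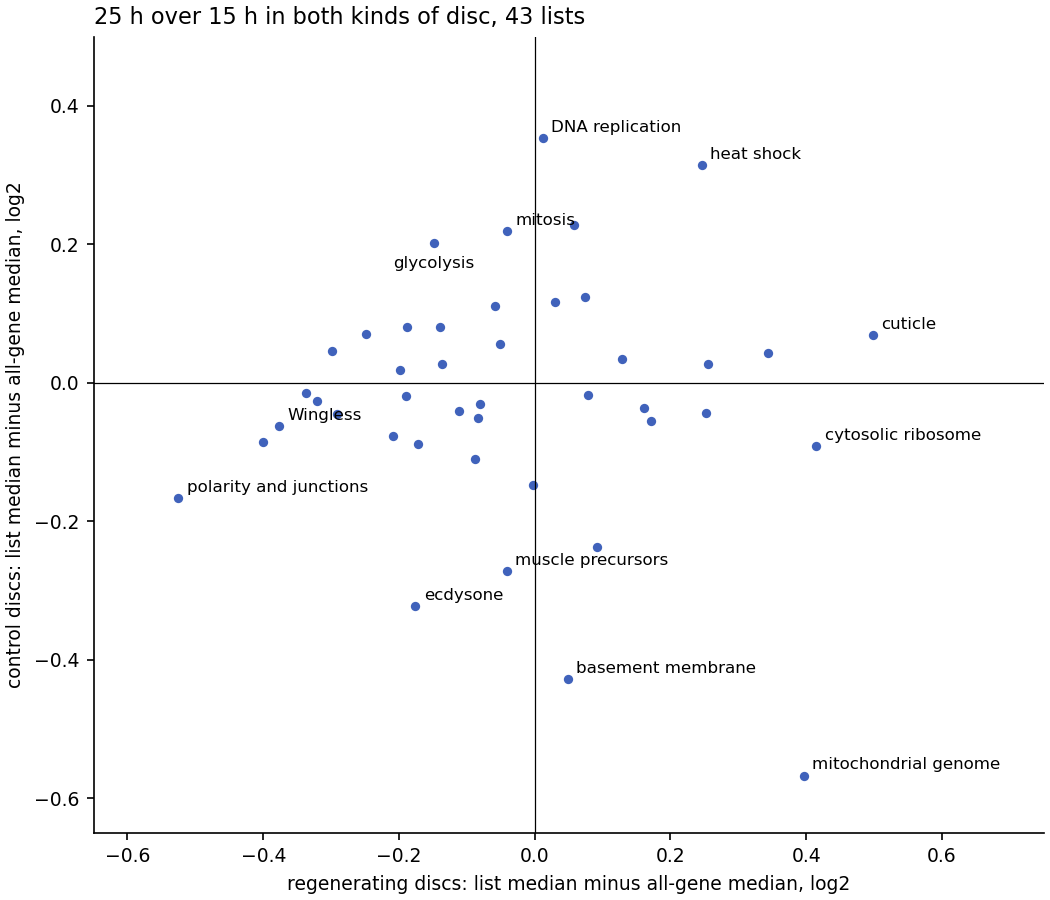
List medians of log2 ratios, 25 h over 15 h, minus the median of all genes, in control discs (vertical axis) and regenerating discs (horizontal axis), for 43 lists with at least 5 members compared, fat body markers left out at 1.40 and 2.08. DNA replication lies high at 0.35 near 0 for regenerating discs, and mitochondrial genes lie lowest at -0.57 with 0.40 in regenerating discs.

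Genes listed at 0 in 1 column had no ratio. Of all 17158 genes, 1745 were above 0 at 15 h and at 0 at 25 h. Of these, 412 had at least 1 FPKM and 47 at least 5 FPKM at 15 h. The reverse held for 91 genes, 55 of them with at least 1 FPKM and 7 with at least 5 FPKM at 25 h. Of 2365 antisense and long non-coding RNA genes, 384 were at 0 at 25 h alone and 2 at 15 h alone. The 150 that could be compared had a median 0.23 below that of all genes, with asRNA:CR45818 as their single member past the rule. Among protein-coding genes at 0 at 15 h alone were GatB, at 14.9 FPKM at 25 h and 10.6 FPKM at 0 h, and CG14613, at 15.9 and 11.0 FPKM at those times.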

How the data were processed

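RNA of 12 libraries in 6 groups was measured, of which 4 libraries make up both control groups compared. The authors deposited FPKM, 1 merged column per group, with the way of merging not stated in the labels or the file. STAR 2.4.0j, RSEM and the build dm6 appear in the submitters' processing notes, with no roles. Whole numbers of at least 1000 ending in 5 were read as values with a lost decimal point and divided by 1000. This concerned 48.4% of the values above 0 at 25 h and 41.8% at 15 h, and 5558 of the genes compared. Further, 1 column that matches no label here was left out.

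Symbols were paired with 16912 of 17158 identifiers, and 246 were not paired. Positions and exonic lengths come from the Ensembl release 115 annotation of BDGP6.54, the assembly of dm6. Groups followed the sample titles. A rule of size took the place of a test: a log2 ratio of at least 1 in size, pseudocount of 1 FPKM, at least 1 FPKM in 1 or both columns, above 0 in both. The calculation was tested on simulated data, in which decimal points were removed by the same pattern that the restoring step reverses. That test cannot show whether the restoration is right for the deposited values. Python 3.11.15 with pandas 2.3.3, numpy 2.4.6 and matplotlib 3.10.9 was used.

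Members and 46 gene lists were chosen with earlier results of these data known, and 12 more lists were added after values had been seen. Of the list members 96 matched no symbol, such as wg and br, and are not analysed here. Named genes were the 15 highest and 15 lowest ratios among genes of at least 5 FPKM, the 6 largest changes of each list, and further members past the rule. Also named were up to 15 genes past the rule in both kinds of disc and a fixed set of patterning, hormone and growth genes. Chaperones and list extremes named beyond this, members of the added lists and genes listed at 0 were chosen after their values were seen. A planned search of promoters for motifs was not run, and no sequence was used here. Alternatives covered pseudocounts, filters, scalings, thresholds, zeros, restored values, gene classes, exonic length and overlapping genes.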

Additional observations from a re-analysis of the deposited data

Results flagged for a closer look

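Log2 ratios of 25 h over 15 h lay past the rule in opposite directions in control and regenerating discs for 2 genes, and these differences were not tested. CG18542, a gene of no known role here, had a ratio of 1.03 in control discs, at 29.3 FPKM at 25 h and 13.9 FPKM at 15 h. In regenerating discs its ratio was -1.30, at 9.16 FPKM at 25 h and 23.9 FPKM at 15 h. FBgn0085826, which is paired with no symbol, had a ratio of -1.81 in control discs, at 111 FPKM at 25 h and 390 FPKM at 15 h. In regenerating discs its ratio was 1.85, at 93.1 FPKM at 25 h and 25.1 FPKM at 15 h.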

How the results depend on the processing

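No paired analysis was possible because each group has 1 merged column with no replicate numbers, so neither a replicate block nor leaving out a replicate could be run. No named gene past the rule changed sign under the scalings, pseudocounts and length centring run on it. That outcome was fixed in advance, since a pseudocount keeps the sign and the other shifts are far smaller than the rule. The balance of higher and lower genes turned under 3 of the settings below, those with 16 and 25, 80 and 421, and 16 and 22. Against 25 higher and 9 lower genes, a pseudocount of 0.1 FPKM gave 54 and 27 and one of 5 FPKM gave 10 and 4. Median-of-ratios scaling gave 16 and 25, with a shift of -0.18 in log2 ratios. A rule of 1.5 times gave 308 and 80, and one of 4 times gave 7 and 0. Including genes listed at 0 in 1 column gave 80 and 421. Genes with no restored value, 1919 in all, gave 11 and 2. Nuclear protein-coding genes gave 25 and 5. Added after the data were seen, centring on exonic length gave 16 and 22, and genes that overlap no other annotated gene, 3202 in all, gave 12 and 4. No filter, a filter of 5 FPKM and columns scaled to the same sum stayed within 1.5 times of both counts. Of 295 named genes, a pseudocount of 5 FPKM took 12 below the rule and median-of-ratios scaling took 4 below it and brought 8 past it. List medians relative to all genes changed sign or moved by 0.1 or more in 30 of 55 lists over genes with no restored value, 19 of 56 over genes without overlap, 9 of 57 centred on length, 8 of 57 at a pseudocount of 5 FPKM, 8 of 56 at a filter of 5 FPKM and 6 of 57 with zeros included. The other settings moved 0 to 2. With unknown depth, values under 1 FPKM at 25 h cannot be told from 0.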

Other observations

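Some genes known from the testis had values above 0 at 25 h alone in control discs. Of 63 testis genes, listed after values had been seen, 13 were above 0 at 25 h and at 0 at 15 h in control discs. A further 3 were the reverse and 8 were above 0 in both columns. Over all 17158 genes in the table, the first pattern held for 91, the 13 among them, and the reverse for 1745. Because the list was made with these values in view, no conclusion is drawn from setting its count beside that of all genes. The level at 25 h was 3.78 FPKM for ocn, 3.27 FPKM for S-Lap1, 2.65 FPKM for loopin-1, 2.12 FPKM for betaTub85D, the testis form of beta tubulin, and 2.06 FPKM for ProtB, a sperm chromatin protamine. Of these, ocn, betaTub85D and ProtB were listed at 0 in the other 2 control columns and in regenerating discs at 25 h and 15 h. S-Lap1 stood at 0.18 FPKM at 0 h in control discs and 0.34 FPKM at 25 h in regenerating discs, and loopin-1 at 0.12 FPKM at 0 h in control discs and 0.495 FPKM at 25 h in regenerating discs. The higher gene dj, also of sperm development, stood at 0.12, 0.125 and 1.39 FPKM at 0 h, 15 h and 25 h in control discs. Whether testis tissue was carried along with these discs was not tested.

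The dosage compensation RNA roX2, made in males, stood at 39.1 FPKM at 25 h and 44.7 FPKM at 15 h in control discs, and at 282 FPKM at 0 h. Its partner roX1 stood at 96.7 and 109 FPKM at 25 h and 15 h, and at 83.5 FPKM at 0 h. The labels used here do not give the sex of the larvae.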
